A study of Oryza sativa with 19 samples.

Results

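The array holds oligonucleotide probes that mark 1 transcript variant of a rice locus, and these were set against the common probe of the same locus. Members were chosen by name alone. A probe whose name joins a locus identifier to S and a number entered when its array design also held the C probe, or another S probe, of that locus. The rule took 2402 of the 84068 probe positions of 2 array designs, 1268 on design S1 and 1134 on design S2. In all 4084 positions carried an S, and 1682 of them had no partner on their design. Of the members 1989 had a C probe and 413 had other S probes only. They came from 1947 loci, of which 27 had members on both designs, and no S and C pair was on both.

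RNA of 5 groups was labelled with both Cy3 and Cy5 and hybridised against itself, with 2 arrays for each group on each design (a single one for NB panicle on S2). NB (Nipponbare, a japonica rice) was sampled as shoot from greenhouse soil, as root from hydroponic culture, as panicle from the field and as callus on induction medium under constant light, and IR64 (an indica rice) as shoot from greenhouse soil. The labels give a growth of 10 days for shoots and roots, 28 days for callus and none for the panicle, while the study's methods make the shoots older than that and place the panicle at the late booting stage. RNA was pooled from several plants per the methods and each sample was hybridised repeatedly, so the 2 arrays of a group may be technical replicates and the p-values measure the spread between arrays. The labels name a Trizol extraction for IR64 and an RNeasy kit for every NB sample. The methods name Trizol for the shoots of both varieties and an RNeasy kit for the other tissues. If the labels hold, the effect of variety and that of the kit cannot be told apart. If the methods hold, the kit cannot be told apart from the difference of shoot from root, panicle and callus.

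A locus can give several transcripts, because introns are spliced in more than 1 way and because transcription can start or end at different places. Plants, rice included, use retained introns and alternative splice sites often, and the mix of variants of a locus can change with the organ. A probe inside a shared exon reads all variants together, while a probe in a stretch of 1 variant reads that variant and whatever else binds it.

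The gene name of each S probe cites a full-length cDNA clone, and each locus identifier gives the chromosome, an order number and F or R for the strand in the numbering CHRv2, as in R03-00158R on chromosome 3. The numbers after S ran from 1, with 1775 members, to 5, with 2 members. What S and C stand for is read from the words SPEC and COMM in the probes' gene names, since the sources used here do not define them. The members lay on all 12 chromosomes, from the 347 of chromosome 1 downward, with 1164 on F loci and 1238 on R loci.

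The measure was S minus C, the log2 signal of the S probe less that of the C probe on the same array, where log2 signals are means of both dyes after each array and dye was scaled to a median of 1000. A scaling factor of an array cancels in it. Its level carries the unequal binding of 2 oligonucleotides and was not read as a share of transcripts, so only changes of the measure between groups were compared. A probe counted as detected where the scanner software flagged it well above background in both dyes.

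Over the 19 arrays 66.4% to 88.8% of all probes were detected and 0 to 2 of the 314 negative control spots. Members were detected at 70.0% to 92.3% and their C probes at 86.5% to 97.5%, and among pairs detected on an array the median S minus C lay between -1.94 and -0.86, so S probes were mostly the dimmer of the pair. Replicate 2 arrays of design S2 were dim, and the replicate SD of S minus C had a median of 0.48 on S1 and 0.58 on S2 among pairs detected on every array. Replicate 2 of every group was scanned on 1 day and replicate 1 on 3 other days.

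S minus C differed between the 4 NB tissues for 153 of the 1147 pairs that could be tested, or 13.3% of them (limma, moderated F, Benjamini-Hochberg adjusted p under 0.05), from 146 loci. Both probes of a tested pair were detected on all NB arrays of the design, which left 842 of the 1989 pairs untested, and 101 pairs were not jointly detected on any array. Design S1 gave 146 calls among 658 pairs and design S2 gave 7 among 489, and an unadjusted p under 0.05 was reached by 245 and 77 pairs. The distance from the tissue with the highest mean to that with the lowest had a median of 2.82 on the log2 scale among called pairs, with a smallest value of 1.35, and of 1.01 among the others. A pair on S2 that was not called reached a distance of 6.81. With the replicate number as a block the count was 428, with the scan day as a block it was 340, and without the first or the second NB shoot arrays it was 81 or 76.

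The same fit was made for pairs of common probes, an E5 probe (a further probe class whose gene name also carries COMM) less the C probe of its locus. Of 3647 such pairs 338 were called, or 9.27%. By design these were 289 of 1860 on S1 (15.5%) and 49 of 1787 on S2 (2.74%). For S and C pairs the shares were 22.2% on S1 and 1.43% on S2, so the order of the 2 kinds was reversed on S2. The replicate SD of E5 and C pairs was smaller, with medians of 0.38 on S1 and 0.44 on S2. Where both probes were above a scaled signal of 1000 on every NB array, 30 of 406 S and C pairs (7.39%) and 93 of 1904 E5 and C pairs (4.88%) were called. By contrast with shoot, E5 and C pairs were called at 4.83% for root, 4.49% for panicle and 8.74% for callus, and they were called at 1.84% for panicle against root, 3.46% for callus against root, 2.23% for callus against panicle and 0.783% for IR64 against NB shoot. Whether the 2 kinds of pair differ was not tested, and signal level moved with both counts.

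With all arrays, contrasts with NB shoot gave the most calls. S minus C differed for 176 of 1200 pairs between callus and shoot (14.7%), for 128 of 1265 between panicle and shoot (10.1%) and for 113 of 1206 between root and shoot (9.37%). These 3 contrasts share the NB shoot arrays. In each of them more pairs were lower than higher away from shoot, by 106 to 70 in callus, 89 to 39 in panicle and 67 to 46 in root, against a median difference over all tested pairs of -0.13, -0.12 and -0.15. Between the other tissues 57 of 1427 pairs (3.99%) differed for callus and panicle, 30 of 1371 (2.19%) for callus and root, and 18 of 1417 (1.27%) for panicle and root. All of these counts moved by over 1.5 times when 1 replicate was left out, and the lowest were 75 for callus, 45 for panicle and 33 for root against shoot, 17 for callus against panicle, 2 for callus against root and 8 for panicle against root. Without the second root replicate root against shoot, at 33, lay below callus against panicle, at 39. With only the compared groups in the fit callus against shoot gave 57. The replicate block gave 425, 309 and 324 for callus, panicle and root against shoot, 141 for callus against panicle, 153 for callus against root and 81 for panicle against root. On S2 alone the callus and panicle contrast and the panicle and root contrast gave 0 calls each by limma, with 40 and 26 pairs under an unadjusted p of 0.05. On the replicate 2 arrays alone, scanned on 1 day, 176 of 176, 113 of 113 and 127 of 127 called pairs with an array in both groups kept their direction for callus, root and panicle against shoot, which the calls themselves favour.

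In most called pairs the C probe changed and the S probe alone did so in fewer. Of the 176 pairs called between callus and shoot, the C probe alone was called in 87 when all probes of the array were tested singly, the S probe alone in 30, both in the same direction in 28, both in opposite directions in 18 and neither in 13. For panicle against shoot the C probe alone was called in 70 pairs and the S probe alone in 28, and for root against shoot in 63 and 25. Where the C probe alone was called, it was higher away from shoot 62 times of 87 in callus, 55 of 70 in panicle and 44 of 63 in root. In E5 and C pairs with C alone called, it was higher 70 times of 102, 50 of 65 and 34 of 60 in the same order. Among the 332 called E5 and C pairs between callus and shoot, C alone was called in 102 and E5 alone in 112. These counts were 65 and 55 for panicle against shoot and 60 and 61 for root against shoot. Over all detected pairs the median size of a change from shoot to callus was 0.72 for S probes and 1.02 for C probes, and the lower signals of the S probes moved with this.

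Changes of S and of C between the same tissues went together in part. Across 1200 pairs the Pearson correlation of the 2 changes from shoot to callus was 0.58, and it lay between 0.56 and 0.59 in the 6 tissue contrasts. For E5 and C pairs it lay between 0.80 and 0.84. The points of each correlation share the same arrays, and pairs of a locus share a probe. Taken singly, S probes were called at 18.4%, 16.2% and 22.6% for root, panicle and callus against shoot, at 5.53% and 8.41% for panicle and callus against root and at 8.00% for callus against panicle. All probes of the arrays were called at 21.2%, 18.0%, 26.5%, 9.59%, 14.2% and 11.9% in the same order, and between the varieties at 2.05%, with S probes at 1.55%.

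Tissue by tissue, 35 pairs had S minus C higher in NB shoot than in each of the other 3 tissues and 17 had it lower, each called in all 3 contrasts, out of 1147 pairs. These are 3.05% and 1.48% of the pairs, and E5 and C pairs under the same rule gave 28 (0.768%) and 34 (0.932%) of 3647. Without 1 replicate of any group the 35 ranged down to 8, without the second NB shoot replicate, and up to 54, without the first of callus, and the 17 down to 7, without the first NB shoot replicate. With the replicate block they were 99 and 54.

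For callus 2 pairs were higher (0.174%) and 7 lower (0.610%), for panicle none was higher and 3 were lower (0.262%), and for root none was higher and 1 was lower (0.0872%). E5 and C pairs gave 0.740% and 0.247% for callus, 0.0823% and 0.219% for panicle and 0.247% and 0.110% for root, higher first. Without either root replicate none of the callus pairs was called. In the pairs of all 4 tissues the arrays of the tissue did not overlap those of the others, which the calls themselves favour. The same held for every E5 and C pair called under this rule. All but 1 of the 65 calls of S and C pairs came from design S1.

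Pair R03-00158R_S1 (chromosome 3, R strand, clone J033087B02) was higher in shoot. S minus C was 4.79 and 3.54 on the NB shoot arrays, -0.38 and -0.68 on root, -1.28 and -1.38 on panicle, -0.15 and -1.54 on callus, and 4.52 and 4.16 on IR64 shoot. The shoot arrays of both varieties lay far above all others, and C was not detected on 1 IR64 array. The S probe itself stayed between 11.62 and 12.95 on all 10 arrays, while C was at 8.15 and 8.68 in NB shoot and between 12.00 and 13.84 in root, panicle and callus. The nearest tissue, root, was 4.70 ± 0.55 (SE) away, a 25.9-fold change of the ratio (limma, adjusted p = 0.0012). It was 10.7-fold with normexp background correction and 16.8-fold and 40.1-fold without the first and the second NB shoot replicate.

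R10-00379R_S1 (chromosome 10, R strand) was the reverse case, with the S probe as the part that varied. S was at 12.13 and 12.76 in NB shoot and 11.44 and 11.71 in IR64 shoot, and between 8.84 and 9.34 on the 6 arrays of the other tissues. C lay between 7.93 and 9.88 throughout, at its lowest in shoot and not detected on 1 IR64 array. S minus C was 4.20 and 4.12 in NB shoot and between -0.67 and 0.32 in root, panicle and callus, and root was the nearest tissue at 3.89 ± 0.33 (adjusted p = 0.00057), a 14.8-fold change of the ratio that was 6.83-fold with normexp.

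R10-00443R_S1 (chromosome 10, R strand, clone J023022N01) had S minus C of -1.26 and 2.21 in NB shoot, so the 2 arrays of that group lay far apart, with S at 11.27 and 14.83. Root gave -4.32 and -5.70, panicle -5.94 and -5.45 and callus -3.58 and -4.32, all below both shoot arrays. The IR64 shoot arrays were at 2.86 and 1.31. The difference from callus, the nearest tissue, was 4.42 ± 1.03 (adjusted p = 0.015). This 21.4-fold change was 7.84-fold with normexp, 106-fold with the scan day as a block, 71.2-fold without the first NB shoot replicate, and 6.45-fold and no longer called without the second.

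Among the pairs lower in shoot, for R04-00818R_S1 (chromosome 4, R strand) S minus C was -4.84 and -5.39 in NB shoot, 2.07 and 2.44 in root, 1.40 and 1.23 in panicle, 3.83 and 2.71 in callus, and -2.84 and -5.10 in IR64 shoot. C was at 17.30 and 17.12 in NB shoot against 9.51 to 11.73 in the other NB tissues, and S stayed between 11.72 and 13.40. The distance from shoot to callus, 8.39 ± 0.69 or 335-fold, was the widest span among the pairs tested (adjusted p = 0.00011). With the ceiling of 100000 that the study set on signals, which C passes in NB shoot, it was 7.79, less than the 8.15 of R11-00069F_S1, and the distance to the nearest tissue, panicle, was 5.83 in place of 6.43. The locus had a second variant probe, R04-00818R_S2, which was detected on the shoot arrays of both varieties and not on every array of any other tissue.

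R07-00833F_S2 (chromosome 7, F strand, clone J013159G14) had the same shape. On the arrays the difference was -5.37 and -5.53 in NB shoot, -4.35 and -5.58 in IR64 shoot, -0.07 and -0.29 in root, -1.12 and -1.39 in panicle, and 2.18 and 1.04 in callus. S ran from 11.74 to 12.73, while C fell from 18.10 and 17.93 in NB shoot to 10.38 and 10.72 in callus. Callus also stood above panicle, by 2.87 ± 0.51 (adjusted p = 0.013). C passed the ceiling in shoot here as well, and with it the distance from shoot to panicle was 2.79 in place of 4.19.

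R11-00069F_S1 (chromosome 11, F strand) was the 1 pair of design S2 in this group, and both of its probes moved. S was at 8.84 and 9.52 in NB shoot, 12.24 and 12.85 in root, 11.06 in panicle and 10.04 and 11.21 in callus. C ran the other way, from 14.46 and 14.89 in NB shoot to 9.58 and 10.21 in root, 10.71 in panicle and 9.48 and 10.02 in callus. S minus C thus rose from -5.62 and -5.37 in NB shoot to 2.66 and 2.64 in root, by 8.15 ± 0.41 or 283-fold (adjusted p = 0.00013). IR64 shoot lay near NB shoot, at -4.80 and -5.00. The distance from shoot to panicle, the nearest tissue, was 5.85 ± 0.50, was 4.68 with normexp and was not called without either NB shoot replicate.

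Few pairs were set apart in root or panicle. The 1 pair lower in root was R12-00506F_S1 (chromosome 12, F strand), with S minus C at 1.37 and 0.31 in root, 2.86 and 2.53 in NB shoot, 4.18 and 3.41 in panicle and 4.71 and 4.80 in callus. S was at 14.31 and 14.76 in callus against 11.83 and 11.06 in root. Root differed from the nearest tissue, shoot, by 1.86 ± 0.45 or 3.63-fold (adjusted p = 0.028), and by 2.17-fold with normexp, where it was not called.

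R12-00261R_S1 (chromosome 12, R strand, clone J023012J07) was lowest in panicle, at -2.86 and -3.80, and lay between -0.14 and 0.69 on the other 6 NB arrays. Its C probe was at 14.17 and 14.57 in panicle and between 10.77 and 11.37 on those 6. R04-00127F_S3 (chromosome 4, F strand, clone J023034P03) was at -3.61 and -3.42 in panicle and between -0.86 and 0.97 in the other NB tissues. Both of its probes were bright in shoot, S at 12.57 and 11.88 and C at 12.96 and 12.74, but in panicle S was at 10.15 and 10.31 under a C of 13.77 and 13.73. Their distances from the nearest tissue were 3.57 ± 0.46 and 2.89 ± 0.64 (adjusted p = 0.0028 and 0.018), and the latter, 7.42-fold, was 4.66-fold with normexp.

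R02-01151F_S1 (chromosome 2, F strand, clone J023106O04) was called in all 6 tissue contrasts. The difference S minus C was -6.65 and -7.02 in panicle, -4.87 and -4.34 in shoot, -2.09 and -2.58 in root and 0.65 and -0.57 in callus, 4 levels with no overlap. The S probe was dim and nearly flat, between 8.73 and 9.54, and C spanned 15.67 and 15.75 in panicle to 8.18 and 9.34 in callus. Panicle and callus differed by 6.88 ± 0.50 (adjusted p = 0.00026). The step from root to callus, 2.37, was 1.44 with normexp, 2.98 without the second callus replicate, and 1.77 and not called without the first, and the step from shoot down to panicle was 4.70-fold, or 2.87-fold with normexp.

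In callus the other pair with a higher S minus C was R03-00993R_S1 (chromosome 3, R strand, clone J023054M04), at -1.51 and -2.09 against -5.64 to -4.32 on the other NB arrays. C was lowest there, at 10.99 and 11.77, against 13.85 to 16.53 in shoot, root and panicle. Among the pairs lower in callus, R01-00855R_S1 (chromosome 1, R strand, clone J033093O20) was at -2.65 and -3.38 against -0.64 to 0.62 in the other NB tissues. Its S probe stayed between 10.52 and 11.30 on the NB arrays, and C was at 13.23 and 14.28 in callus. For R06-00703F_S2 (chromosome 6, F strand, clone J033070M08) S minus C stepped down from -0.79 and -1.20 in shoot to -3.20 and -3.57 in root, -3.33 and -4.11 in panicle and -5.27 and -6.69 in callus. Root and panicle overlapped in that order and the other steps did not, though the step from panicle to callus, 4.79-fold, was 7.84-fold without the first callus replicate, and 2.93-fold and not called without the second. Callus differed from NB shoot by 2.76 ± 0.37, 3.43 ± 0.39 and 4.99 ± 0.54 in the 3 pairs (adjusted p = 0.0014, 0.00065 and 0.0005).

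R12-00142F_S1 (chromosome 12, F strand) was the pair lower in callus with the largest distance to the nearest tissue, 2.84 ± 0.59 from root (adjusted p = 0.037), a 7.15-fold change that was 12.2-fold without the first callus replicate, and 4.20-fold and no longer called without the second. S minus C was -2.52 and -4.06 in callus, -0.07 and -0.84 in root, 1.24 and 0.62 in panicle, 4.79 and 4.03 in NB shoot and 5.29 and 4.60 in IR64 shoot. S was at 15.44 and 14.28 in NB shoot and 11.18 to 12.85 in the other NB tissues, while C was at 15.37 and 15.86 in callus and 10.25 to 12.69 elsewhere in NB. The locus also had an E5 probe, E5_00174, at a mean of 10.72 in NB shoot and 11.03 in callus, and a second variant probe, R12-00142F_S3, at 11.67 and 14.05. The E5 probe, whose gene name also carries COMM, thus differed little between tissues where C rose, and E5 minus C was 0.27 in shoot and -4.59 in callus.

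Opposite movement, with the S and the C probe each called when all probes of the array were tested and their signs reversed, was found in 31 of the 1591 pairs that could be tested in at least 1 of the 6 tissue contrasts (1.95%), all at different loci. Callus against shoot held 18, panicle against shoot 11 and root against shoot 7, and each of the other 3 contrasts 1. Among E5 and C pairs 29 of 5086 (0.570%) moved in opposite directions. By design the shares of S and C pairs and of E5 and C pairs were 3.47% and 0.963% on S1 and 0.138% and 0.222% on S2. The replicate block gave 111 S and C pairs. Without the first NB shoot arrays their count was 9, without the second 18, without the first or second NB panicle arrays 19 or 20, and without the first NB callus arrays 56.

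The pair with the largest smaller shift was R11-00069F_S1, described above, in which S rose by 3.36 ± 0.62 and C fell by 4.78 ± 0.58 from shoot to root (adjusted p = 0.0043 and 0.00041). Next came R12-00142F_S1, where S fell by 2.53 ± 0.55 and C rose by 5.17 ± 0.39 from shoot to callus (adjusted p = 0.0019 and 5.6e-08). In R10-00443R_S1 S fell by 3.86 ± 0.76 and C rose by 2.31 ± 0.46 from shoot to panicle (adjusted p = 0.0012 and 0.0014). These 3 were also named above for a tissue difference of S minus C, which rests on the same signals as the reversal.

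R01-00158F_S1 (chromosome 1, F strand, clone J023107G08) had S at 11.35 and 13.81 in NB shoot and 10.30 and 9.89 in callus, and C at 10.16 and 10.17 in NB shoot and 12.42 and 13.31 in callus. The NB shoot arrays disagreed on S, and IR64 shoot was lower than both, at 9.77 and 10.49. In R01-01123R_S1 (chromosome 1, R strand, clone J013000G01) S was at 10.21 and 10.94 in NB shoot and 12.64 and 12.28 in root, its highest level, and C at 15.90 and 15.32 in NB shoot and 13.01 and 13.99 in root. S rose by 1.88 ± 0.39 and C fell by 2.11 ± 0.52 (adjusted p = 0.0015 and 0.0056).

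Between varieties, S minus C differed for 6 of 1166 pairs of IR64 and NB shoot (0.515%), all on S1, with 4 higher and 2 lower in IR64. The probes were designed on Nipponbare sequence. The paper left IR64 out of its further analyses, since variation in the genome sequence may have affected the IR64 signals. Whether such variation lies under the probes of these pairs was not tested. An unadjusted p under 0.05 was reached by 68 pairs. The replicate block gave 21. The count was 0 and 2 without the first and the second NB shoot arrays and 1 without the first IR64 shoot arrays.

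In R07-00416F_S1 (chromosome 7, F strand) S minus C was 3.25 and 2.72 in IR64 shoot and -0.79 and -0.81 in NB shoot, and it lay between -1.81 and 0.33 in the other NB tissues. C was at 9.73 and 10.54 in IR64 and 11.88 to 14.56 in NB, with S at 12.98 and 13.26 and at 11.89 to 12.75. The E5 probe of the locus went with C, from a mean of 11.99 in NB shoot to 8.08 in IR64. A probe named for the same clone as S went with S, at 13.98 and 14.21. The difference was 3.79 ± 0.52 (adjusted p = 0.0093).

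R06-00523F_S2 (chromosome 6, F strand, clone J023025M19) was at -1.28 and -1.09 in IR64 shoot and between -5.56 and -4.09 in all NB tissues. C was at 10.32 and 9.79 in IR64 against 13.38 to 14.62 in NB. All 4 E5 probes of the locus were detected on every NB array and failed to be detected on at least 1 IR64 array, and their means there were 7.49 to 8.50 against 13.51 to 14.70 in NB. The S probe was dim in both varieties, at 9.05 and 8.70 in IR64 and 8.46 to 9.83 in NB. The difference was 3.20 ± 0.40 (adjusted p = 0.0055).

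R07-00384R_S1 (chromosome 7, R strand) had C at 9.50 and 9.32 in IR64 shoot and 12.27 and 12.35 in NB shoot, and S at 11.01 and 9.97 and at 9.93 and 9.61. S minus C differed by 3.62 ± 0.52 (adjusted p = 0.010), or by 2.82 with normexp. In the 2 pairs lower in IR64 the S probe was lower and the C probe higher there. R11-00119F_S1 (chromosome 11, F strand, clone J013044J03) had S at 12.26 and 12.38 in IR64 shoot and 14.49 and 14.21 in NB shoot, with C at 13.08 and 14.30 and at 12.55 and 12.07. C was not detected in root and callus. R03-00789F_S1 (chromosome 3, F strand) had S at 11.09 and 11.16 in IR64 shoot and 13.36 and 12.62 in NB shoot, with C at 14.20 and 14.81 and at 13.66 and 13.22. The mean of C was thus higher in IR64, where its 3 E5 probes had means of 13.45, 14.73 and 14.26 against 13.19, 14.87 and 14.01 in NB shoot. S minus C was lower in IR64 by 3.41 ± 0.57 and 2.92 ± 0.34 (adjusted p = 0.025 and 0.0055).

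Some variant probes crossed the detection limit while C was detected on every NB array, which held for 1693 pairs. An S probe detected in the other 3 tissues and on no array of 1 was found 34 times for NB shoot, 4 times for root, once for callus and 0 times for panicle. An S probe detected in 1 tissue alone was found 8 times for callus, 3 times for shoot and 2 times each for root and panicle. Of the S probes with a detected C 2.01% were lost in shoot, 0.236% in root, 0.0591% in callus and 0% in panicle. Over all 84068 probe positions the lost shares were 1.71%, 0.147%, 0.163% and 0.0797% in that order. The gained shares of those S probes were 0.473% in callus, 0.177% in shoot, 0.118% in root and 0.118% in panicle. All probe positions gave 0.451%, 0.151%, 0.338% and 0.487%. Of the 34 lost in shoot 25 had a bound above 1-fold, with a median over the 34 of 1.30-fold, and the bound of the other 9 was at or under 1-fold. Detection was lower on the shoot arrays, where 66.4% to 81.6% of all probes were detected in NB, and under the looser rule of a signal significantly above background the 34 became 7 and the 8 became 1. Each bound sets the mean of the bright group against, for every dim array, its lowest detected signal or the signal of the probe, whichever was larger.

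R02-00797F_S1 (chromosome 2, F strand, clone J033070F06) was not detected in either variety's shoot, at 6.07 and 6.89 in NB and 6.43 and 6.89 in IR64. It was at 9.23 and 9.70 in root, 10.87 and 11.49 in panicle and 12.29 and 13.24 in callus, at least 3.34-fold higher in each of these tissues. C was at 9.85 and 9.20 in NB shoot and overlapped root and panicle, where it lay between 8.58 and 10.38. R08-00163R_S1 (chromosome 8, R strand, clone J033128K11) was at 7.14 and 8.01 in NB shoot and 9.45 to 11.92 in the other NB tissues, at least 3.57-fold higher. Its C probe went the same way, with 11.15 and 11.63 in NB shoot and 13.08 to 16.05 elsewhere in NB.

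R04-00167R_S1 (chromosome 4, R strand, clone J023010D04) was detected only in NB shoot, at 9.33 and 9.81, and was at 6.44 to 7.77 in the other NB tissues, at least 3.82-fold lower. IR64 shoot, at 6.77 and 8.48, was not detected either. C of this locus had a mean of 13.15 in NB shoot, above the 11.33, 11.66 and 11.46 of root, panicle and callus. Mean S minus C was -3.58 in NB shoot and -3.97, -4.36 and -4.35 in those tissues, where S was not detected. R10-00170R_S1 (chromosome 10, R strand, clone J023107K23) was at 8.91 and 8.59 in NB shoot and 8.59 and 9.09 in IR64 shoot, and at 5.45 to 6.05 without detection elsewhere. C was level for this pair, between 9.42 and 10.39 on all 10 arrays.

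In callus R02-00537R_S1 (chromosome 2, R strand, clone J033102J07) was detected at 8.94 and 10.67 against 6.92 to 7.89, at least 3.35-fold higher, and C rose with it, to 13.71 and 15.25 from 9.80 to 11.42. R01-00399R_S1 (chromosome 1, R strand) was at 8.28 and 9.44, at least 1.56-fold higher by the group means, while NB shoot, not detected, reached 8.85 on 1 array. Its C probe, at 14.10 to 17.41 in NB, was highest in callus. The C means were 17.02 in callus, 14.11 in shoot, 14.94 in root and 15.75 in panicle. Mean S minus C was -8.16 in callus and -6.40, -7.24 and -8.53 in shoot, root and panicle, where S was not detected. The 1 probe lost in callus, R04-00132R_S2 (chromosome 4, R strand, clone J023110K05), was at 6.76 and 7.86 there and at 8.49 to 10.34 in the other NB tissues, at least 2.35-fold higher. Lost in root were R12-00114F_S1 (chromosome 12, F strand, clone J013041H23), at 6.64 and 7.35 against 8.32 to 12.27, at least 2.59-fold, and R06-00246R_S2 (chromosome 6, R strand, clone J013035N16), at 7.46 and 7.64, at least 1.38-fold. C of R12-00114F was lowest in root as well, at 9.86 and 10.31 against 11.37 to 15.88. The probes found in root or panicle alone lay near the limit, with R09-00264F_S1 (clone J023079F15) at least 1.30-fold higher in root but also detected in IR64 shoot, R01-01306F_S1 (clone J013112C08) at least 1.06-fold and R03-00435F_S1 (clone J023114I18) at least 1.00-fold higher in panicle.

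Where a locus had 2 or more S probes, they could be set against each other without C. S minus S differed between the 4 NB tissues for 47 of 223 pairs (21.1%), 41 of 132 on S1 and 6 of 91 on S2, from 42 loci. By contrast, 28 of 240 pairs (11.7%) were called for root against shoot, 28 of 261 (10.7%) for panicle against shoot and 43 of 239 (18.0%) for callus against shoot. The shares were 2.41% for panicle against root, 2.90% for callus against root and 2.39% for callus against panicle. The span between tissues had a median of 2.96 among the called and 1.27 among the others. The replicate block gave 88. The count was 20 and 17 without the first and the second NB shoot arrays, 28 and 24 without those of root, and 31 without the first of panicle. Between the varieties 0 of 231 pairs were called by limma, with 17 under an unadjusted p of 0.05. Of 71 loci with 2 testable S and C pairs, 54 had none called over the NB tissues, 11 had 1 and 6 had both, and of 8 loci with 3 such pairs 7 had none and 1 had 2.

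R02-00270R (chromosome 2, R strand) held 4 variant probes on S1, the most of any locus, and no C probe on that design. All 4 were highest in root, with means of 13.98, 16.36, 14.11 and 9.28 for S1 to S4, and the rise from NB shoot differed among them. S2 rose from 12.93 in NB shoot, S1 from 11.84, S3 from 11.98 and S4 from 8.81. Of the 6 pairs 5 were called over the NB tissues, the clearest being S2 against S4, whose difference was 2.96 ± 0.44 larger in root than in shoot (adjusted p = 0.0018). S1 and S3 were the pair that was not (adjusted p = 0.37), with a span of 0.83.

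R01-00167R and R01-00480F (both chromosome 1, on S2) came next in number and name, with 3 variant probes and a C probe each. In R01-00167R the means of S1, S2, S3 and C were 16.60, 8.78, 9.84 and 13.29 in NB shoot and 17.95, 10.61, 12.13 and 15.24 in callus, and all 4 had lower means in shoot than in callus. None of its S and C pairs was called (adjusted p from 0.67 to 1.00), nor any of R01-00480F (adjusted p from 0.55 to 0.91). In R01-00480F S3 was highest in callus, at 11.02 and 12.29, and S1 was level there, at 10.22 and 10.87 against 9.60 and 11.06 in NB shoot.

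Since both dyes carried RNA of 1 sample, the dye effect on S minus C gives part of its technical error. S minus C differed between Cy5 and Cy3 for 237 of 930 pairs on S1 and 89 of 815 on S2 (limma, adjusted p under 0.05), and 9 and 4 of these by at least 1.5-fold. The SD of the dye difference over arrays was 0.24 and 0.28. The counts of calls over the NB tissues were 147 with Cy3 alone and 151 with Cy5 alone.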

How the data were processed

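The authors hybridised each RNA against itself on 2-colour Agilent arrays and scanned them, and the deposited files hold spot intensities as written by Feature Extraction 8.1.1.1 per the file headers, background-subtracted and dye-normalised. Each array and dye was scaled here to a median of 1000 over all non-control probes, as in the study's methods but without their ceiling, and log2 values of the dyes were averaged. Spots flagged as outliers in either dye were left out and counted as not detected. S minus C was fitted per design with limma 3.58.1 (R 4.3.3) over all 5 groups, with a shared spread and Benjamini-Hochberg adjustment over all pairs tested on that design in that comparison. A fitted group with 1 array, as NB panicle on S2, is assumed to vary like the others. The precision is limited by the number of arrays. Scripts were tested on simulated data, with 200 of 658 S and C pairs of S1 changed in NB root and independent noise. Against NB shoot, a log2 change of 1 was recovered in 0% of the changed pairs. A change of 2 was recovered in 86.5%, with 12 false calls. The F test recovered 0% and 84.5%. A pair that was not called can thus hold a log2 change of 1.

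Named pairs were, per NB tissue, up to 3 with the highest and 3 with the lowest S minus C, called against each other tissue, with no overlap and no saturated spot, ranked by the nearest tissue, up to 3 each way for IR64, the 5 opposite movers with the largest smaller shift, up to 2 probes lost and gained per tissue by bound, and the 3 loci with most S probes. The members, lists and tests were chosen with earlier results of these data known. The E5 pairs, counts for S1 alone, values of 1 scan day, alternatives of the tissue counts and detection over all probes were added after the data were seen. The deposited value tables were not used, nor were probe sequences. Identifiers were not matched to gene names, so no tissue marker check was made. Alternatives were another background and normalisation, a signal ceiling, filters on signal and saturation, single dyes, replicate and scan-day blocks, fewer groups, and leaving out each replicate.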

Additional observations from a re-analysis of the deposited data

Results flagged for a closer look

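The 1682 S probes without a partner on their design entered no comparison, and their signal was above that of the negative control spots. A median over the arrays of 86.61% of them was well above background, with a range from 67.6% to 92.8%, while on each array no more than 2 of 314 negative controls reached that limit. All probes were detected at 66.4% to 88.8% and the members at 70.0% to 92.3%, so the lone S probes lay near both. No group held enough arrays for an outlier check.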

How the results depend on the processing

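On S1 alone counts stayed within 1.5 times of those reported. S1 gave 146 of the 153 calls of the F test and S2 gave 7, so this was largely fixed in advance. A minimum difference of 1 could change no S minus C count, since every called difference was already above 1. Counts also stayed within 1.5 times under a signal ceiling of 100000, quantile normalisation, either dye alone and without saturated pairs. Other settings moved them, given here for the F test over NB tissues, then root, panicle and callus against shoot, panicle and callus against root, callus against panicle, and IR64 against NB shoot. Normexp with loess and Aquantile gave 282, 206, 212, 304, 50, 93, 109 and 12, detection in 1 group enough gave 292, 191, 203, 299, 38, 47 and, for IR64, 26, and signals above 1000 gave 30, 21, 39, 55, 5, 10, 16 and 2. The replicate block gave 428, 324, 309, 425, 81, 153, 141 and 21, and 88 for S minus S and 111 for opposite movers. Deviations of same-numbered arrays in S minus C correlated at 0.63 to 0.87 on S2 and at 0.08 to 0.71 on S1, where over all probes the lowest was 0.11. On S1 the correlations of NB shoot with the other groups were 0.08 to 0.22, and those among the other groups 0.47 to 0.71. The pairing thus held on S2 and among the other groups on S1, and was weak for NB shoot on S1. Both counts are given. The scan-day block gave 340, 249, 257, 356, 121, 140 and 112. Only the compared groups in the fit gave 226 for panicle and 57 for callus against shoot, 36 and 0 for panicle and callus against root and 9 for callus against panicle. S minus S rose to 81 with detection in 1 group enough. Without the step of 2.6 SD the lost S probes became 7, 1, 2 and 0 and the gained 1, 1, 2 and 1 for shoot, root, panicle and callus, and with at least 1.5-fold the dye calls fell to 13. Leaving out 1 replicate gave 76 to 205 (F test), 33 to 147 (root against shoot), 45 to 179 (panicle against shoot), 75 to 222 (callus against shoot), 8 to 31 (panicle against root), 2 to 28 (callus against root), 17 to 59 (callus against panicle), 0 to 7 (IR64), 17 to 63 (S minus S) and 9 to 56 (opposite movers). Such a fit holds fewer arrays, and its lone array is assumed to vary like the other groups. Counts fell most without arrays of the groups compared. Callus against root also fell to 16 without either NB shoot replicate and to 12 without either panicle or IR64 replicate, and panicle against root fell to 11 without the first IR64 replicate and rose to 31 without the second callus replicate. Of 408 refits of the named pairs 339 kept their side of the threshold, 69 lost the call and none reversed. The cause was not tested.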
